A study of Oncorhynchus mykiss with 30 samples.

Results

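TC103433 is 1 of 60195 probes of a rainbow trout oligonucleotide microarray, and in the study it carries the annotation of the transcription factor HES5. It was chosen because its level over the exposure groups was known to fall at the lowest concentration of ethynylestradiol and to stand higher at the concentrations above it. The shape itself is therefore given as a description without a test. The files name the probe by its design identifier alone. Its gene name rests on the study's annotation, matched to the only probe whose changes at 0.01 and 0.1 μg/L coincide with those printed for HES5.

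HES5 belongs to the hairy and enhancer of split family of basic helix-loop-helix repressors. Notch receptors are activated by ligands on a neighbouring cell, and the cleaved receptor enters the nucleus and switches on genes of this family. In mice Hes5 is best known for keeping neural progenitors from differentiating, and Notch signalling also takes part in the development of both testis and ovary. Ethynylestradiol (EE2) is a synthetic oestrogen, and genetically male trout exposed to oestrogens during early development can form ovarian tissue.

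All groups were fry of an all-male rainbow trout population, held for 76 days until an age of 136 days post-fertilisation. The exposed groups received EE2 at a nominal 0.01, 0.1 or 1 μg/L, or at 10 μg/L as the highest of the 4 levels, and the control group received the solvent alone. Each group had 3 tanks with 2 pools per tank, each pool held 10 pairs of gonads and was hybridised to 1 single-colour array, and 30 arrays were made. The labels call every sample testis, whereas the study's histology described ovotestis and ovarian-like gonads among exposed fish. The lowest concentration lay below the detection limit of the immunoassay that measured EE2 in the tanks. None of the cell type markers looked for (Sertoli, Leydig, germ cell, granulosa and oocyte genes) was named in the files, so the tissue was not checked against them here. In pooled gonads, fewer cells of a type and less RNA per cell cannot be told apart. Pools of a tank share their water, so the spread over 6 arrays is partly a spread within tanks.

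The level of TC103433 was highest in controls and lowest at 0.01 μgEE2/L. Normalised log2 signal averaged 9.78 ± 0.73 in controls, 5.09 ± 0.45 at 0.01 μg/L, 7.45 ± 0.62 at 0.1 μg/L, 7.64 ± 0.53 at 1 μg/L and 6.58 ± 0.88 at 10 μg/L (SD, n = 6 arrays each). As geometric means of the normalised signal these are 877 in controls and then 34.0, 175, 200 and 95.9 with increasing concentration. The control arrays ran from 8.68 to 10.74 with a median of 10.00. At 0.01 μg/L the lowest, median and highest arrays had 4.32, 5.23 and 5.53. At 0.1 μg/L they had 6.86, 7.33 and 8.59, and at 1 μg/L 7.07, 7.55 and 8.38. At 10 μg/L they had 5.41, 6.34 and 7.86. No exposed array reached the controls, the nearest being the highest array at 0.1 μg/L with 8.59, against 8.68 for the lowest control array. The share of all probes separated from the controls in this way was not counted, and the probe was chosen with its levels known. The 0.01 μg/L arrays lay below all arrays at 0.1 and 1 μg/L, and 1 array at 10 μg/L fell among them.

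**Figure D1:**
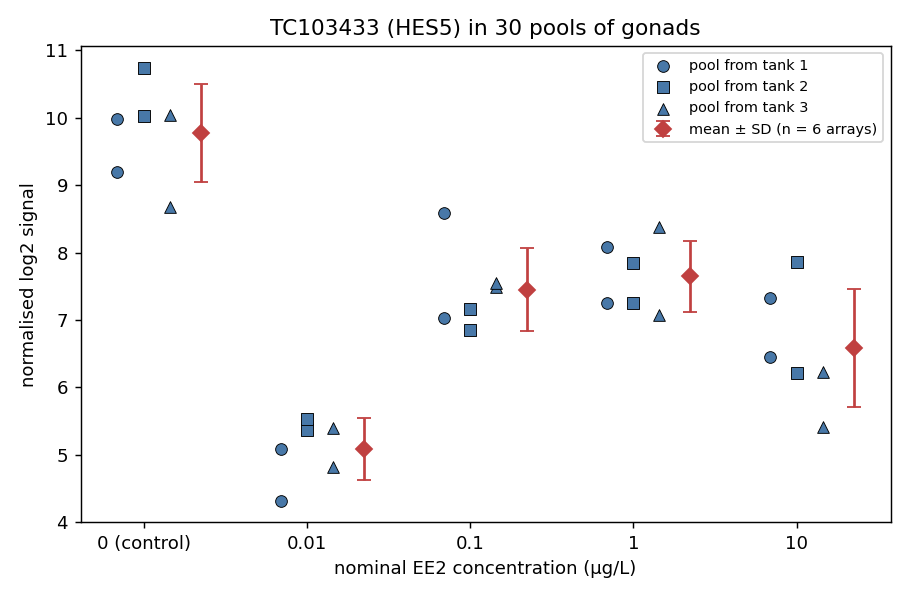
Normalised log2 signal of TC103433 (vertical axis) in each pool of gonads, by nominal EE2 concentration (horizontal axis, control at the left). Points are single arrays with 1 symbol per tank, and diamonds with bars are means ± SD of 6 arrays. The 6 arrays at 0.01 μg/L lie between 4.32 and 5.53, and the arrays at 0.1 and 1 μg/L between 6.86 and 8.59.

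Relative to the controls, the level differed by -4.69 at 0.01 μg/L on the log2 scale (SE 0.37, 25.8-fold lower). With normexp, another background correction that compresses dim signals, the difference was -3.19 (9.11-fold lower). The difference was -2.33 at 0.1 μg/L (5.02-fold lower), -2.13 at 1 μg/L (4.38-fold lower) and -3.19 at 10 μg/L (9.15-fold lower), each with the same SE. The concentration thus did not order the size of the fall. Among all probes, the change at 0.01 μg/L was the most negative on the array (it ranked 3 with normexp), while those at 0.1, 1 and 10 μg/L ranked 571, 1309 and 386 from the most negative. With limma and an adjusted p threshold of 0.05, 5.09% of all probes were called lower at 0.01 μg/L than in controls, and 14.3%, 21.2% and 22.5% at the 3 higher concentrations in order. Since the probe was picked for these differences, no p is given for it.

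Set against the 0.01 μg/L group, the level stood 2.36 higher at 0.1 μg/L on the log2 scale (5.14-fold), 2.56 higher at 1 μg/L (5.89-fold) and 1.50 higher at 10 μg/L (2.82-fold), each with an SE of 0.37. With normexp these returns were 1.29, 1.44 and 0.72. All 6 arrays at 0.1 and at 1 μg/L lay above every 0.01 μg/L array, and 5 of 6 did so at 10 μg/L. The exception was replicate 6 at 10 μg/L with 5.41, against a highest 0.01 μg/L array of 5.53. Of all probes, 6.03% were called higher at 0.1 than at 0.01 μg/L, 9.56% at 1 and 13.4% at 10 μg/L. These returns ranked 212, 143 and 919 from the most positive. Expressed as a share of the fall on the log2 scale, 50.4% was regained at 0.1 μg/L, 54.5% at 1 μg/L and 31.9% at 10 μg/L. The return was therefore partial at every concentration. The returns and the fall are all measured against the same 6 arrays at 0.01 μg/L, so they are not independent of each other.

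The 3 higher concentrations were less clearly ordered among themselves. The level at 1 μg/L was 0.20 above that at 0.1 μg/L (log2, SE 0.37), and the arrays of both groups covered the same range. At 10 μg/L it differed by -0.87 from that at 0.1 μg/L and by -1.06 from that at 1 μg/L, with 4 of 6 arrays under the lowest array of the other group in each case. In order of level the groups ran from controls through 1, 0.1 and 10 to 0.01 μg/L. Of the neighbours in this order, 1 and 0.1 μg/L were not separated beyond their spread, and 0.1 and 10 μg/L overlapped in 2 of 6 arrays at 10 μg/L. Between 10 and 1 μg/L almost no probe of the array passed the threshold (0.00166% lower and 0.00166% higher), and the difference of TC103433 was the 234th most negative of all probes.

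Before normalisation the spot showed the same order. The linear processed intensity of the spot was 428 to 1584 in controls, 20.8 to 62.3 at 0.01 μg/L, 78.6 to 340 at 0.1 μg/L, 120 to 487 at 1 μg/L and 44.8 to 226 at 10 μg/L. Within each array, it stood at the 66.2nd to 84.2nd percentile of all probes in controls and at the 19.8th to 31.5th percentile at 0.01 μg/L. The percentiles were 46.6 to 65.3 at 0.1 μg/L, 49.0 to 63.2 at 1 μg/L and 30.2 to 57.8 at 10 μg/L. The dim spots at 0.01 μg/L stood above background, though much nearer to it than in controls. They were 4.21 to 14.3 times the 95th percentile of the negative control spots of their array. Those control spots spread little after processing (median 2.85 and 95th percentile 3.26 on 0.01 μg/L replicate 1). These multiples can thus overstate the distance from background. Before background subtraction, the median spot intensity was 2.22 to 2.85 times the local background at 0.01 μg/L, against 10.2 to 47.9 times in controls. The scanner software marked 5 of 6 spots at 0.01 μg/L as well above background. The exception was replicate 2, although its spot was 4.21 times the 95th percentile of the negative control spots. In the 4 other groups it marked 6 of 6. The spot was never saturated or marked as an outlier.

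**Figure D2:**
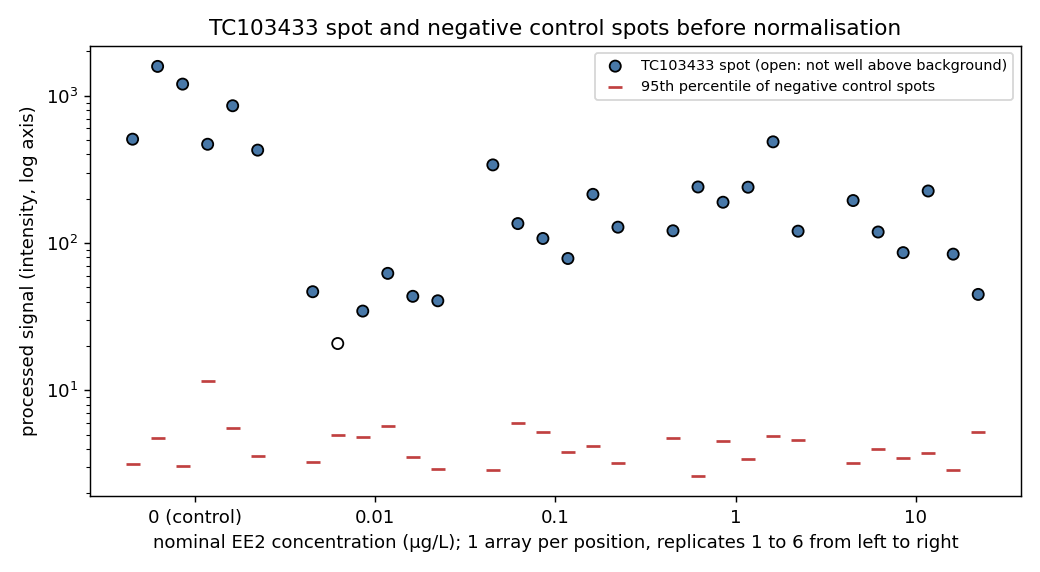
Processed signal of the TC103433 spot before normalisation (vertical axis, intensity on a log scale), with 1 array per position on the horizontal axis, grouped by nominal EE2 concentration. Red dashes are the 95th percentile of the negative control spots of the same array, and the open circle is the array on which the spot was not well above background. All 30 spots lie above their dash, with the narrowest gaps at 0.01 μg/L (4.21 to 14.3 times).

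The array carries a single spot of this probe, so the state of the array around it was examined. Over the 427 probes within 10 rows and columns, the median deviation from each probe's own group median was taken. It lay within 0.1 on the log2 scale on 28 of 30 arrays. It reached 0.34 on control replicate 4 and 0.17 on 0.1 μg/L replicate 1. Without the latter array, the return of TC103433 at 0.1 μg/L was 2.13. On the 0.01 μg/L arrays the deviation was at most 0.054 in either direction. Each group was centred on itself, so a shift shared by all arrays of a group was removed beforehand. The values can thus show single arrays that stand apart, but not whether the neighbouring spots moved between controls and 0.01 μg/L. Array brightness, taken as the 75th percentile of the processed signal, was 556 to 1100 at 0.01 μg/L and 359 to 1238 in controls. Across the 30 arrays, the deviation of TC103433 from its group means had a Pearson r of 0.036 and a Spearman rho of 0.073 with log2 brightness, given as a description.

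The level was also compared between tanks. Tank means in controls were 9.59, 10.38 and 9.36, and at 0.01 μg/L they were 4.70, 5.45 and 5.11. At 0.1 μg/L they were 7.81, 7.01 and 7.52, at 1 μg/L 7.67, 7.54 and 7.72, and at 10 μg/L 6.89, 7.04 and 5.82. Pools of a tank differed by 0.056 to 1.65. These values follow the labels of the scanner output, and the deposited value table exchanges 3 pairs of pools within a concentration. By the labels of that table the tank means were 9.61, 10.36 and 9.36 in controls, 7.29, 7.01 and 8.04 at 0.1 μg/L and 6.88, 6.22 and 6.64 at 10 μg/L, and pools of a tank differed by 0.018 to 2.45. By either set of labels every tank at 0.01 μg/L lay below all tanks of the other groups, and every control tank above them. This was largely given beforehand, since among the arrays compared here only those at 0.01 and 10 μg/L overlapped. Over all probes, 312 had every tank mean at 0.01 μg/L below all others by the scanner labels. The share with every control tank highest was not counted. Differences between tanks of a concentration did not pass the threshold (limma moderated F test over all probes, F = 1.04, adjusted p = 0.842, and 0.865 with the value table). Only 6 of all 60195 probes passed in that test. The pooled SD of TC103433 within groups was 0.66, against a median of 0.45 over all probes, and 75.3% of probes had a smaller one.

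The arrays were placed on 4 slides, each of which held all 5 concentrations. No slide effect passed the threshold for TC103433 (limma moderated F test with concentration in the model, F = 0.659, adjusted p = 0.876, with 55 probes called on the array). The fall at 0.01 μg/L was found within each slide, at -5.24, -4.68, -3.28 and -4.46 on the log2 scale for slides 1 to 4. The returns at 0.1 μg/L were 3.85, 1.97, 1.55 and 2.02, those at 1 μg/L 3.10, 1.89, 2.83 and 1.63, and those at 10 μg/L 1.07, 2.23, 0.83 and 0.92. The fall and the returns at 0.1 and 1 μg/L had the same direction on all 4 slides. That direction was given beforehand, since the arrays of these groups did not overlap those they are compared with. The return at 10 μg/L was also seen on all 4 slides. Its direction was given by the arrays too, since the only 2 that overlapped lay on different slides. They were replicate 6 at 10 μg/L on slide 1 and replicate 4 at 0.01 μg/L on slide 4. The slide values describe the same arrays on which the probe was chosen. Each slide holds 1 to 3 arrays of a concentration, which leaves the sizes on single slides uncertain. On slide 1 the return of 3.85 comes from 1 array at 0.1 μg/L, replicate 1, around which the neighbouring spots also deviated.

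**Figure D3:**
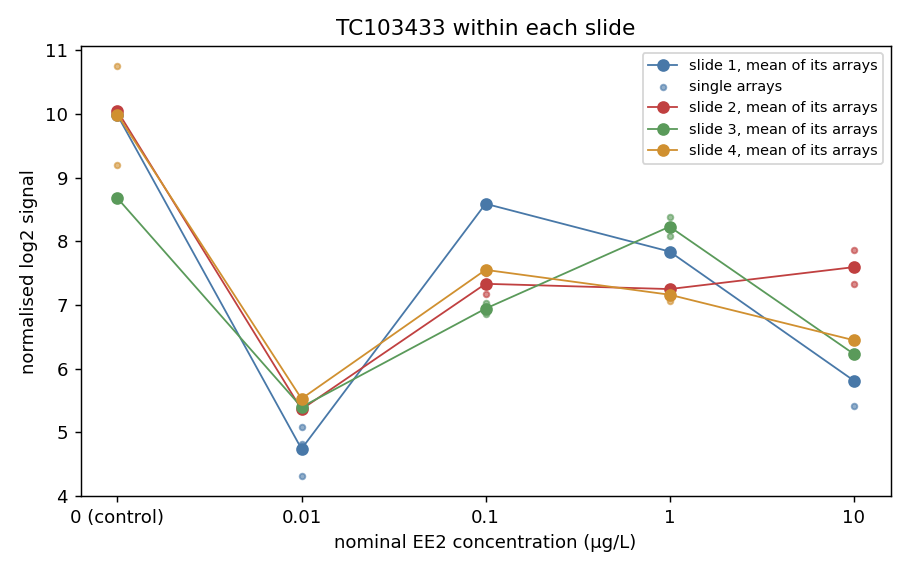
Normalised log2 signal of TC103433 (vertical axis) by nominal EE2 concentration (horizontal axis) on each of the 4 slides. Large points joined by lines are slide means, and small points are single arrays. Every slide has its lowest mean at 0.01 μg/L, with differences of -5.24 to -3.28 from its own control arrays on the log2 scale.

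To see how many probes behave this way, 3 shapes were counted over the whole array from the limma contrasts. A V was a level called lower at 0.01 μg/L than in controls and called higher at 0.1 than at 0.01 μg/L. A full V was also called higher at 1 and at 10 than at 0.01 μg/L. A deep full V also had a fall of at least 2 and returns of at least 1 on the log2 scale. Of all probes, 0.128% (77 probes) had a V, 0.0698% (42 probes) a full V and 0.00498% (3 probes) a deep full V. For 1 of the 3, TC112252, the fall rests on signals at 0.01 μg/L that were not well above background. TC103433 had all 3 shapes, which were drawn after its own. The counts depend on single arrays, and the V ranged from 43 to 139 probes when 1 array at a time was left out. They take the 2 pools of a tank as separate, and with tank means 39 probes had a V and 24 a full V. With normexp no probe had a deep full V, and with Scheffe's criterion TC103433 kept the V but not the full V. Among the 3063 probes called lower at 0.01 μg/L, 2.51% had a V and 1.37% a full V.

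The opposite shape was found as well. A mirrored V was held by 0.0831% of probes (50), a full mirrored V by 0.0665% (40) and a deep full mirrored V by 0.00166% (1 probe). When 1 array at a time was left out, the mirrored V ranged from 29 to 65 probes and the full mirrored V from 24 to 54, both lowest without replicate 3 at 0.01 μg/L. A separate count, without a test, asks whether all 6 arrays at 0.01 μg/L lay below the 24 others, and 0.0266% of probes (16) met it. TC103433 was not among them, for the single overlap with replicate 6 at 10 μg/L. The reverse, with all 6 arrays above the 24 others, was met by 0.0399% (24 probes). The group mean was lowest at 0.01 μg/L in 14.1% of probes, at 0.1 μg/L in 18.1%, at 1 μg/L in 15.5% and at 10 μg/L in 23.7%, while 28.7% were lowest in controls.

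**Figure D4:**
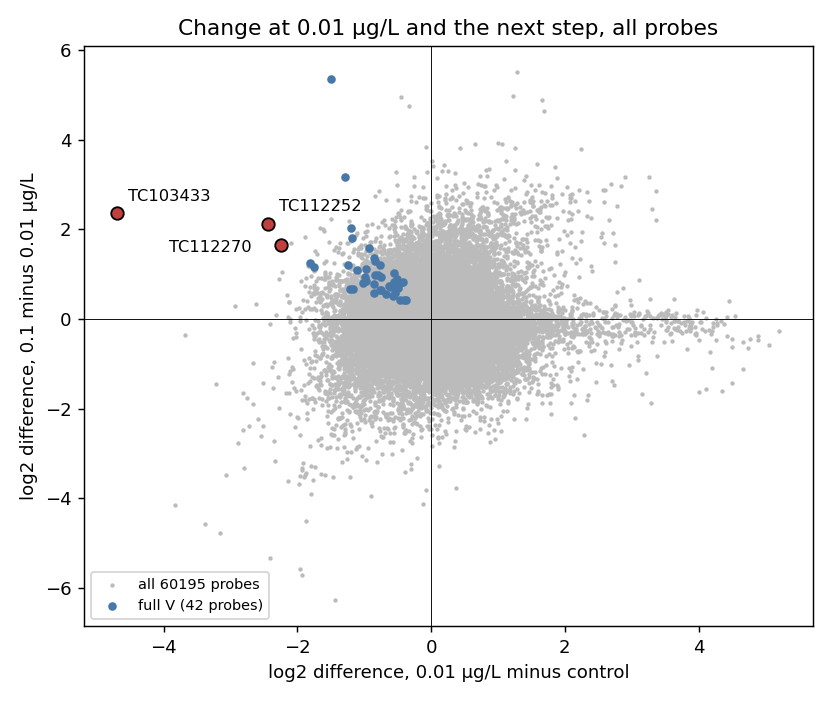
Log2 difference of 0.01 μg/L minus control (horizontal axis) against 0.1 minus 0.01 μg/L (vertical axis) for all 60195 probes in grey, full V probes in blue and the 3 deep full V probes named in red. TC103433 sits far to the left at -4.69 and 2.36. Both axes share the 0.01 μg/L arrays, so the error of these arrays pushes points toward the upper left and the lower right.

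Large falls at 0.01 μg/L mostly continued downward. In all, 51 probes were called lower there with a fall of at least 2 on the log2 scale. At 0.1 μg/L, 3 of the 51 were called higher than at 0.01 μg/L and 32 lower, with a median difference of -1.54. The 3 are the deep full V probes, so TC103433 itself is counted among them. Over all probes, 6.03% were called higher and 4.45% lower in this step. The shares were 9.56% higher and 11.8% lower at 1 μg/L, and 13.4% higher and 13.9% lower at 10 μg/L, each against 0.01 μg/L. At 1 μg/L it was 3 higher and 33 lower, with a median of -1.61, and at 10 μg/L 3 higher and 36 lower, with a median of -1.56. The probes with the next deepest falls, named after their values were seen, showed no return of this size. TC113380 differed by -3.83 from controls at 0.01 μg/L, and by a further -4.14 at 0.1 μg/L from that level. TC97453 differed by -3.68 from controls, and by -0.36 at 0.1, 0.06 at 1 and 0.27 at 10 μg/L from its level at 0.01 μg/L. CUST_2321_PI425536763, TC107019 and CUST_193_PI425708691 differed by -3.38, -3.22 and -3.16 from controls at 0.01 μg/L, and by a further -4.57, -1.44 and -4.77 at 0.1 μg/L.

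The other 2 probes met the deep full V as well, and neither has a gene name in the files. TC112270 averaged 6.00 at 0.01 μg/L, 7.66 at 0.1, 7.96 at 1 and 7.19 at 10 μg/L, against 8.25 in controls. Its fall was -2.25 and its returns were 1.66, 1.95 and 1.19 on the log2 scale, so that 73.6%, 86.9% and 53.0% of the fall was regained. TC112252 was dimmer, with 2.56 at 0.01 μg/L, 4.68 at 0.1, 4.48 at 1 and 4.45 at 10 μg/L, against 4.99 in controls. It was not well above background on any of the 6 arrays at 0.01 μg/L, nor on a part of the arrays at 0.1, 1 and 10 μg/L. Its returns thus also rest partly on such signals. For 0.01 μg/L a floor was set at the dimmest signal marked well above background on each array. With this floor, TC112252 was at least 3.65-fold lower there than in controls. This bound is -1.87 on the log2 scale and does not reach the fall of 2 that the deep full V asks for, so that its place there rests on its measured mean of 2.56. The mirrored probe, TC101282, averaged 12.58 at 0.01 μg/L against 10.29 in controls, and then 9.98 at 0.1, 8.58 at 1 and 8.36 at 10 μg/L. It passed below its control level at higher concentrations, and all 6 of its arrays at 0.01 μg/L lay above the 24 others.

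Over the 42 full V probes, the median fall was -0.84 on the log2 scale, and it ranged from -4.69 to -0.37. TC103433 thus sits at the end of this range, and 14 of the 42 fell at least 2-fold. The median share of the fall regained was 112% at 0.1 μg/L, 133% at 1 μg/L and 106% at 10 μg/L. For most of these probes the level returned to that of the controls or above it. A full V asks for returns that pass the threshold, so a probe with a small fall can enter only with returns that are large beside it. TC103433 had the lowest share of all 42 at each concentration. Its level stayed at -2.33, -2.13 and -3.19 from controls at 0.1, 1 and 10 μg/L, given as a description. Of the 42 probes, 3 were called lower than controls at 0.1, 1 at 1 and 4 at 10 μg/L, with TC103433 counted each time. Over all probes these shares were 14.3%, 21.2% and 22.5%. Of the 42, 33 had a lower mean at 10 than at 1 μg/L, TC103433 included. Over all probes the median of this difference was 0.015 on the log2 scale. The share of all probes with the lower mean at 10 μg/L was not counted, so no trait of the set is read from it. All 6 arrays at 0.01 μg/L lay below the 24 others in 11 of the 42, against 0.0266% of all probes (16). The full V asks for a level at 0.01 μg/L called below every other group, so it favours such probes by definition.

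**Figure D5:**
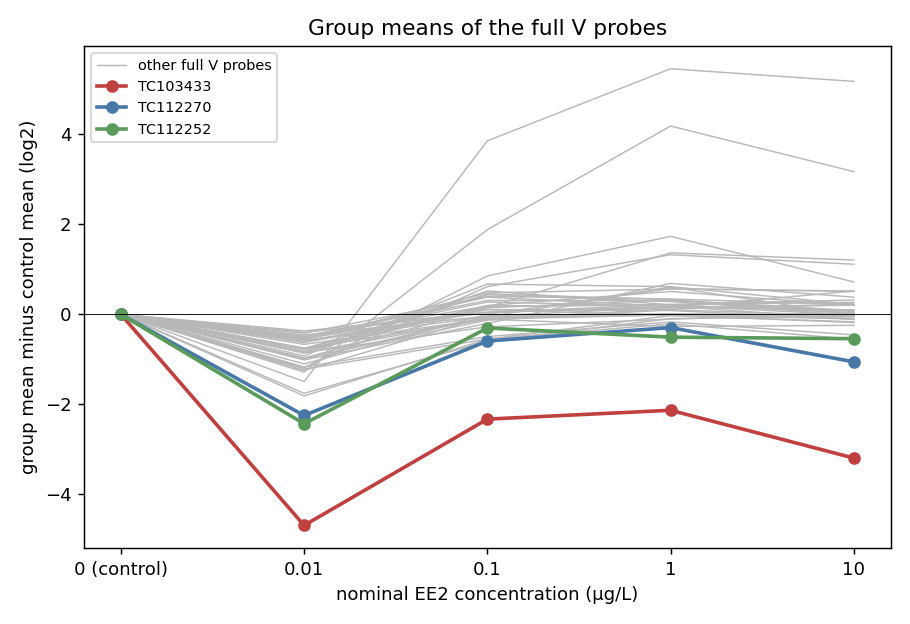
Group mean minus control mean on the log2 scale (vertical axis) by nominal EE2 concentration (horizontal axis) for the 42 full V probes, with the 3 deep full V probes in colour and the rest in grey. Most grey lines return to 0 or above it, while TC103433 in red stays at -2.33, -2.13 and -3.19 at the 3 higher concentrations.

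The probes most alike were sought among the 50744 that were well above background on at least 1 array of each group. Over the 30 arrays the highest Pearson r were 0.87 with TC123709, 0.86 with TC112270, 0.86 with CUST_6408_PI425536763, 0.85 with TC101290 and 0.85 with CUST_12958_PI425536763. No probe exceeded 0.9, and 1% of probes exceeded 0.63. These correlations take in the differences between group means. With the group means removed, r was 0.66 with TC123709 and 0.70 with TC112270, where 1% of probes exceeded 0.65. It was 0.56 with CUST_6408_PI425536763, 0.39 with TC101290 and 0.56 with CUST_12958_PI425536763. All 5 probes were lower at 0.01 μg/L than in controls, but by less than TC103433. Both follow largely from the choice. A high r over the arrays favours probes that are low at 0.01 μg/L, and no probe fell further than TC103433. TC123709 averaged 8.47 at 0.01 μg/L, 8.78 at 0.1, 8.86 at 1 and 8.56 at 10 μg/L, against 9.79 in controls. CUST_6408_PI425536763 averaged 9.94 at 0.01 μg/L against 10.60 in controls. TC112270 was the only one of the 5 with a full V.

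Within groups other probes came first. For deviations from the group means, the highest r were 0.82 with TC111532, 0.81 with TC97472, 0.78 with CUST_12367_PI425536763, 0.78 with CUST_8711_PI425536763 and 0.77 with CUST_1472_PI425536763, where 1% of probes exceeded 0.65. No probe was in both lists. The level of TC97472 was nearly flat, at 10.37 at 0.01 μg/L against 10.60 in controls. All points share the 30 arrays and their normalisation, and the correlations are descriptions. Other genes of the Notch pathway could not be compared, because no probe carries the name of a Notch receptor, ligand or further hes gene in the files used here.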

How the data were processed

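Arrays were single-colour Agilent oligonucleotide arrays, scanned and read by the authors with Feature Extraction 10.7.3.1. The deposited scanner output holds linear intensities after background subtraction, not normalised between arrays, with median spot and local background intensities and marks for saturation, outliers and spots well above background. The authors also deposited a table of quantile-normalised log2 values, made with AMEN, and R 2.15.3 is named in the submitters' processing notes. The p-values and fold changes of the study were not used as results. The printed changes of HES5 served only to find its probe.

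Control spots were left out, log2 of these intensities was taken, and the 30 arrays were quantile normalised. Between 75.6% and 88.2% of probes per array were well above background. The number of arrays, 6 per group, limits the precision. limma 3.58.1 in R 4.3.3 was fitted to all 60195 probes with 1 mean per concentration (lmFit, contrasts.fit, then eBayes with a prior df of 2.89). Benjamini-Hochberg adjustment covered all probes of a contrast, with a threshold of 0.05. Tanks and slides were tested by moderated F tests. Named probes were TC103433, the 5 most correlated over arrays and the 5 most correlated within groups, and the probes of the deep shapes. The 5 probes with the next deepest falls at 0.01 μg/L were added after their values were seen. The probe, shapes and lists were chosen with earlier results of these data known. The counting of shapes was tested on simulated data in which all other probes had no group effect. There a part of the V-shaped probes missed a threshold. The counts are thus of probes called and not of every probe with such a shape. The share missed on the real arrays, where many probes differ between groups, was not measured. Files were read with pandas 2.3.3 and numpy 2.4.6 in Python 3.11.15, and drawn with matplotlib 3.10.9. Alternatives were other scalings, background correction, the deposited log2 values, blocks for slide, tank and replicate number, tank means, array weights, stricter thresholds and leaving out each array. Scanner output and value table carry exchanged labels for 3 pairs of pools, each pair within 1 concentration. The labels of the scanner output were used. Tank values depend on this choice, and contrasts between concentrations do not.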

Additional observations from a re-analysis of the deposited data

How the results depend on the processing

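The fall of TC103433 at 0.01 μg/L and its returns kept their direction under every alternative run. Leaving out, weighting or averaging arrays could not turn the fall or the returns at 0.1 and 1 μg/L. The arrays compared there did not overlap. With normexp background correction, whose offset of 50 compresses dim signals, the fall was -3.19 on the log2 scale and ranked 3 among all probes, and the returns were 1.29 at 0.1, 1.44 at 1 and 0.72 at 10 μg/L. The full V then counted 25 probes with TC103433 among them, and the deep full V 0. With tank means, the V counted 39 probes, the full V 24, and 312 probes had the 3 tanks at 0.01 μg/L below the 12 others, TC103433 included. With array weights, the V counted 273 probes and the full V 130. With Scheffe's criterion, the V counted 4 probes, the full V 2 and the deep full V 1. TC103433 kept the V but lost the full V there. At an adjusted p of 0.01, the V counted 20 probes and the full V 14. The mirrored V and full mirrored V counted 24 and 20 probes with tank means, and 133 and 80 with array weights. They counted 2 and 2 with Scheffe's criterion, and 16 and 13 at an adjusted p of 0.01. Without the 2 arrays with a dim middle, control replicate 4 and 0.1 μg/L replicate 1, they counted 84 and 65. The mirrored V counted 31 with scaling to the 75th percentile. By Spearman's rho, 3 of the 5 most alike probes were the same.

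Leaving out each array in turn, the fall ranged from -4.91 to -4.50 and the returns from 2.13 to 2.48 at 0.1, 2.41 to 2.67 at 1 and 1.24 to 1.73 at 10 μg/L. The V counted 43 to 139 probes (43 without control replicate 3 or 0.01 μg/L replicate 4, 49 without control replicate 1, 50 without 0.01 μg/L replicate 1, 139 without control replicate 6), the full V 24 to 58 (24 without control replicate 3, 27 without 0.01 μg/L replicate 4), the deep full V 2 to 3 and the probes with all arrays at 0.01 μg/L below the others 16 to 26 (25 and 26 without replicates 2 and 5 at 0.01 μg/L). The mirrored V counted 30 without control replicate 3, and 29 and 32 without replicates 3 and 4 at 0.01 μg/L. The full mirrored V counted 26, 24 and 26 without replicates 2, 3 and 4 at 0.01 μg/L. TC103433 had the deep full V in 30 of 30 such fits, a description only, since the shape was drawn after its own values.

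Samples of the same replicate number did not deviate together on average (mean r -0.023 to 0.11), though single r ran from -0.562 to 0.56. The numbers were therefore not taken to pair them. With the replicate number as a block, the fall was -4.69, the returns 2.36, 2.56 and 1.50, the V counted 84 probes and the full V 41. Array brightness as a covariate, an alternative chosen after seeing the data, gave a fall of -4.71, with 132 mirrored V and 117 full mirrored V probes.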
